A study of Mus musculus with 7 samples.

Results

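The genes described here are the 9 nuclear genes Pink1, Phb2, Mfn1, Mfn2, Opa1, Dnm1l, Fis1, Mff and Tfam, which govern the removal, fusion, fission and DNA of mitochondria, in the retinal pigment epithelium (RPE) of aged mice. They were chosen by name, not by a measured value, and all 9 were found among the 52740 Ensembl identifiers of the count table and among the 16990 genes that passed the filter on low counts. Each of the 7 libraries came from 1 mouse aged 24 months, and the labels give genotype as the difference between the groups. The titles also carry a number of unstated meaning that no WT library shares with an LC3b-/- library, so it and genotype cannot be told apart. The groups were WT (females F1, F2 and F3, male M1) and LC3b-/- (females F1 and F3, male M). Values are listed below in this order of libraries. LC3b-/- mice carry a germline targeted allele of Map1lc3b on a mixed B6;129P2 background, whereas the WT mice were C57BL6/J, so that strain background and the loss of LC3b cannot be told apart. The cells were released enzymatically from eyecups after the cornea, ciliary body, lens and neural retina had been taken away. Fewer RPE cells in a preparation and less RNA per cell cannot be told apart in such bulk samples.

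LC3b, the product of Map1lc3b, is a ubiquitin-like protein that is joined to the lipid of autophagosome and phagosome membranes, where cargo receptors bind it. In mitophagy, the selective removal of mitochondria by autophagy, the kinase PINK1 builds up on mitochondria that have lost their membrane potential and marks them for removal by phosphorylating ubiquitin, and prohibitin 2 (Phb2) of the inner membrane can bind LC3 once the outer membrane is breached. Mitofusins 1 and 2 (Mfn1, Mfn2) join outer membranes and OPA1 joins inner membranes, while the GTPase DRP1 (Dnm1l) divides mitochondria after its receptors FIS1 and MFF have brought it to the outer membrane. TFAM packs mitochondrial DNA (mtDNA) and starts its transcription. The RPE takes up shed photoreceptor outer segments every day and is rich in mitochondria, so these pathways have been studied closely in this tissue.

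The targeted gene followed the labels. Map1lc3b stood at 130, 117, 104 and 110 CPM (counts scaled to a common library size after TMM normalization) in the WT libraries and at 6.76, 8.32 and 6.76 CPM in the LC3b-/- libraries. It was the one gene of the lists examined here that edgeR called, with a log2 fold change of -3.98 ± 0.15 (SE, edgeR adjusted p = 0.000186). A gene is called here at an adjusted p under 0.05 together with a fold change of at least 1.5. The libraries held 24495952 to 35616134 counts, and the lowest count behind any value of the 9 genes was 503 (Tfam in LC3b-/- F1).

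None of the 9 genes was called by edgeR, where 0.235% of all genes tested were called (40 of 16990). DESeq2, which called 1810 genes over the whole series, and limma's voom, which called 124, also called 0 of the 9. DESeq2 gave Mfn2 an adjusted p of 0.0294 at a fold change under 1.5. Pink1 and Mfn2, the kinase that marks damaged mitochondria and the mitofusin that also tethers mitochondria to the endoplasmic reticulum, were the 2 genes with an unadjusted p under 0.05, both with lower values in LC3b-/-. Among all genes tested, 10.6% had an unadjusted p under 0.05 with lower values and 13.5% with higher values, and 0 of the 9 genes were on the higher side. The same 2 genes had no overlap between WT and LC3b-/- libraries, a state found in the lower direction in 10.3% and in the higher direction in 12.0% of all genes tested. The share of 2 in 9 rests on so few genes that it was not read as different from these backgrounds.

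**Figure D1:**
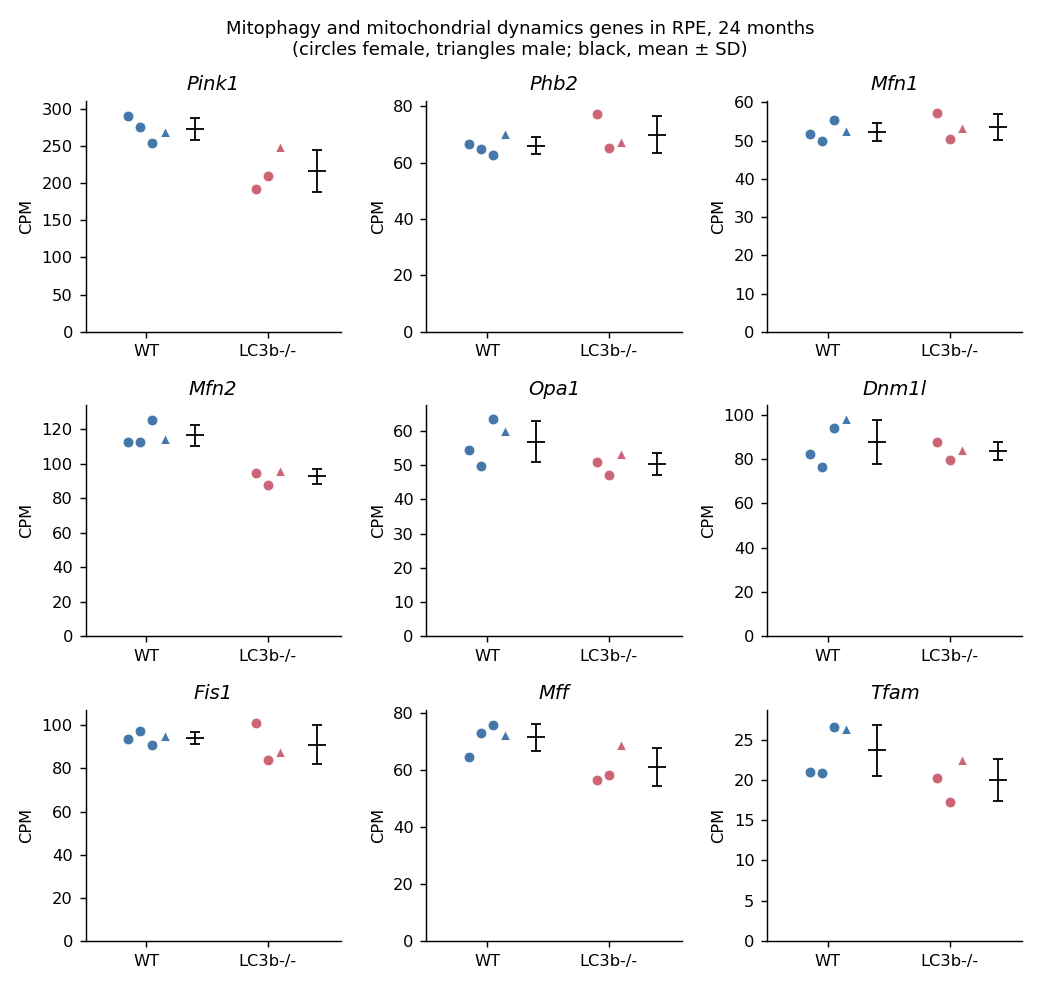
Level of each of the 9 genes in CPM (vertical axes, from 0) in the 4 WT and 3 LC3b-/- libraries, with each point 1 mouse, circles for females, triangles for males and the mean ± SD in black. Pink1 and Mfn2 are the panels in which the highest LC3b-/- library (248 and 95.5 CPM) lies below the lowest WT library (254.5 and 113 CPM).

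Pink1 (ENSMUSG00000028756, 4:138039346-138053618, minus strand, 8 exons in its canonical transcript, GRCm39) was also the most abundant of the 9 genes per length of transcript. Its level was 290.8, 275.0, 254.5 and 269.3 CPM in the WT libraries and 192.2, 209.4 and 248.0 CPM in the LC3b-/- libraries. Every LC3b-/- library was below every WT library, but the gap between LC3b-/- M and WT F3 was small beside the spread within LC3b-/-. The means were 272 ± 15.0 CPM (SD, n = 4) and 216 ± 28.6 CPM (SD, n = 3), a change of -20.5% with a 95% interval from -36.0% to -1.30%. The log2 fold change was -0.33 ± 0.13 (SE), with an unadjusted p of 0.0404 and an adjusted p of 0.190 in edgeR. The exact two-sided permutation test over the 35 assignments of 7 libraries gave p = 0.0286, the smallest it can give.

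Phb2 (ENSMUSG00000004264, 6:124689299-124693913, plus strand), the other mitophagy gene, was at 66.5, 64.9, 62.5 and 69.9 CPM in WT and 77.2, 65.1 and 67.2 CPM in LC3b-/-. Its groups overlapped, with LC3b-/- F1 above all other libraries. The log2 fold change was 0.08 with a 95% interval from -0.16 to 0.32 (edgeR adjusted p = 0.655). This interval leaves out a change of 1.5-fold in either direction, as do those of Mfn1, Mfn2, Opa1, Dnm1l, Fis1 and Mff, whereas those of Pink1 and Tfam reach past it on the lower side.

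Among the 3 fusion genes, Mfn2 (ENSMUSG00000029020, 4:147955508-147989585, minus strand, 19 exons in its canonical transcript) differed most between the genotypes. It was at 113, 113, 125.5 and 114 CPM in the WT libraries and at 94.5, 87.7 and 95.5 CPM in the LC3b-/- libraries. All LC3b-/- libraries lay below all WT libraries, in both sexes, and the distance between the groups was larger than the spread within either. The means were 116 ± 6.19 CPM (SD, n = 4) and 92.6 ± 4.22 CPM (SD, n = 3), a change of -20.45% (95% interval -32.3% to -6.59%). The log2 fold change of -0.33 ± 0.10 (SE) had an unadjusted p of 0.0115 and an adjusted p of 0.122 in edgeR. The exact permutation p was 0.0286, the smallest possible.

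Its paralog Mfn1 (ENSMUSG00000027668, 3:32583599-32645888, plus strand) was at 51.6, 49.8, 55.4 and 52.4 CPM in WT and at 57.1, 50.4 and 53.3 CPM in LC3b-/-. The groups overlapped almost entirely, with a log2 fold change of 0.04 and a 95% interval from -0.19 to 0.26 (edgeR adjusted p = 0.851). The sign of this difference was not stable, since it was -0.02 without LC3b-/- F1. Opa1 (ENSMUSG00000038084, 16:29398108-29473858, plus strand), the fusion GTPase of the inner membrane, was at 54.5, 49.7, 63.4 and 59.9 CPM in WT and at 50.9, 47.0 and 53.3 CPM in LC3b-/-. WT F2 lay among the LC3b-/- libraries, and the log2 fold change of -0.17 ± 0.12 (SE) had an edgeR adjusted p of 0.393.

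**Figure D2:**
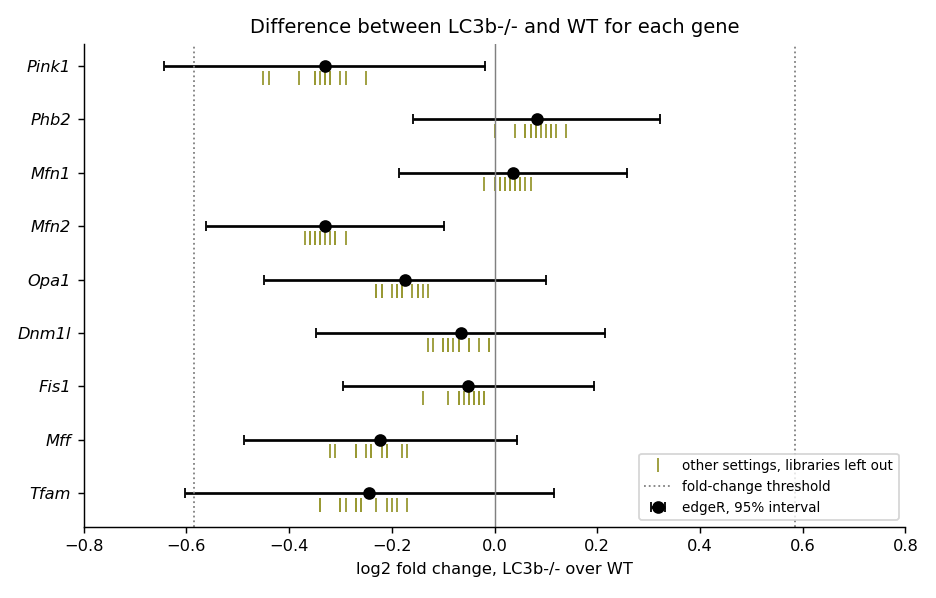
Log2 fold change of LC3b-/- over WT (horizontal axis) for each gene, with the edgeR estimate and its 95% interval in black, the values of the other settings and of fits with 1 library left out as ticks, and the fold-change threshold of 1.5 as dotted lines. The intervals of Pink1 (-0.64 to -0.02) and Mfn2 (-0.56 to -0.10) lie below 0, and those of the other 7 genes cross it.

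Because a ratio of 2 genes within a library does not depend on how libraries are scaled, the counts of the mitofusins were also set against each other. The Mfn1:Mfn2 ratio of counts was 0.458, 0.442, 0.441 and 0.458 in WT and 0.605, 0.575 and 0.558 in LC3b-/-. WT libraries stayed within 0.441 to 0.458, and all LC3b-/- libraries were above that range (0.450 ± 0.0095 and 0.579 ± 0.0238, mean ± SD, n = 4 and 3). This ratio was examined after the levels had been seen and has no test. With each library left out in turn the log2 ratio of Mfn2 over Mfn1 differed between the genotypes by -0.39 to -0.33. Of the 36 pairs among the 9 genes, 7 had ratios that did not overlap between the groups, and 5 of the 7 included Mfn2. The partners of Mfn2 in these pairs were Phb2, Mfn1, Opa1, Dnm1l and Fis1, with its share lower in LC3b-/- each time. The others were Pink1 with Phb2, where LC3b-/- libraries held 2.49, 3.22 and 3.69 counts of Pink1 per count of Phb2 against 3.85 to 4.38 in WT, and Phb2 with Fis1. Pairs that share a gene reuse its counts, so the pairs with Mfn2 are not separate results. Ratios among all genes tested were not counted. Single genes did not overlap in the lower direction in 10.3% and in the higher direction in 12.0% of all genes tested.

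**Figure D3:**
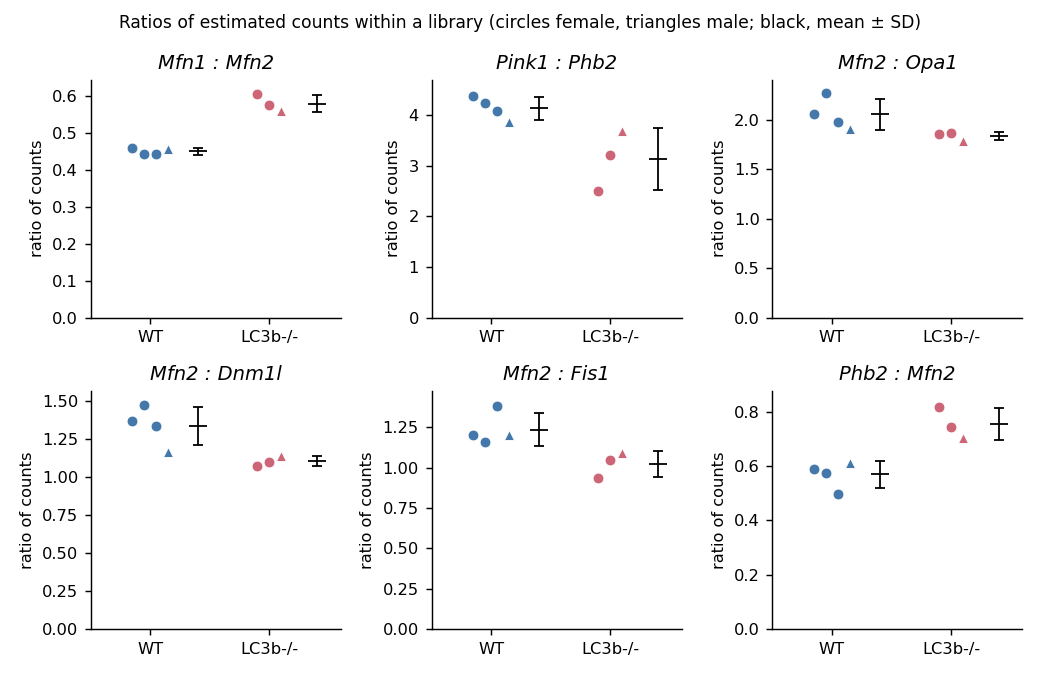
Ratios of estimated counts within a library (vertical axes, from 0) for 6 pairs of genes, with each point 1 mouse and the mean ± SD in black. The Mfn1:Mfn2 panel shows the tightest WT libraries (0.441 to 0.458) below all LC3b-/- libraries (0.558 to 0.605).

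The 3 fission genes overlapped between the genotypes. Dnm1l (ENSMUSG00000022789, 16:16128677-16176904, minus strand), which codes for the dividing GTPase itself, was at 82.1, 76.6, 93.9 and 98.2 CPM in WT and at 87.8, 79.6 and 83.9 CPM in LC3b-/-. The LC3b-/- libraries all fell inside the WT range, with a log2 fold change of -0.07 (95% interval -0.35 to 0.21, edgeR adjusted p = 0.765). Fis1 (ENSMUSG00000019054, 5:136982101-136995089, plus strand) was at 93.8, 97.2, 90.8 and 94.99 CPM in WT and at 101, 83.9 and 87.6 CPM in LC3b-/-, so that LC3b-/- libraries were both the highest and the lowest of the 7 (log2 fold change -0.05, adjusted p = 0.792 by edgeR). Mff (ENSMUSG00000026150, 1:82702582-82730684, plus strand), the main receptor for DRP1, was at 64.7, 73.2, 75.8 and 72.2 CPM in WT and at 56.7, 58.1 and 68.9 CPM in LC3b-/-. LC3b-/- F1 and F3 were below all WT libraries and LC3b-/- M was above WT F1. Its log2 fold change was -0.22 ± 0.11 (SE), with an unadjusted p of 0.0883 and an adjusted p of 0.273 in edgeR.

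Tfam (ENSMUSG00000003923, 10:71061287-71074110, minus strand) packs mtDNA and was at 21.0, 20.9, 26.5 and 26.3 CPM in the WT libraries and at 20.3, 17.3 and 22.4 CPM in the LC3b-/- libraries. The WT libraries formed a lower pair (F1 and F2) and a higher pair (F3 and M1), and 1 of the LC3b-/- libraries was above the lower pair. The log2 fold change was -0.24 ± 0.15 (SE, edgeR adjusted p = 0.362), with a 95% interval from -0.60 to 0.12.

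Across the 9 genes the median log2 fold change was -0.17 beside 0.01 over all genes tested, with 7 of 9 values below 0. Since several of the 9 varied together over the libraries, these are not 9 independent values. Opa1 and Tfam followed each other most closely (Pearson r of log2 CPM 0.95 over 7 libraries), and Mfn2 had an r of 0.82 with Mff and 0.74 with Pink1. Dnm1l and Pink1 showed no shared pattern (r = 0.02), and Phb2 and Mff had an r of -0.58. All these points share the library, its scaling and the difference between the genotypes, so the values only describe these 7 libraries.

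Sex was represented by 1 male in each genotype. Between the males, Pink1 differed by -0.12 and Mfn2 by -0.26 on the log2 scale, and between the means of the females by -0.45 and -0.36. Pink1 was thus lower in both sexes but by a smaller amount in the male, and the test of that difference, an interaction of sex and genotype, gave 0.33 with an unadjusted p of 0.277 and an adjusted p of 0.998 in edgeR. Of the 9 genes, none had an interaction with an unadjusted p under 0.05.

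Levels of different genes were compared as CPM per kilobase of merged exon, since longer transcripts yield more fragments. In WT the order was Pink1 (67.3 ± 3.71), Fis1 (30.3 ± 0.868), Phb2 (17.7 ± 0.835), Dnm1l (12.0 ± 1.38), Mfn2 (11.0 ± 0.586), Mff (6.45 ± 0.428), Opa1 (6.14 ± 0.652), Tfam (5.04 ± 0.671) and Mfn1 (3.88 ± 0.174), each as CPM per kilobase, mean ± SD of 4 libraries. The ranges of Dnm1l and Mfn2, of Mff and Opa1 and of Opa1 and Tfam overlapped, and the other neighbours did not. The order of the 9 genes was the same in LC3b-/-. With the longest annotated transcript as the length, Pink1, Fis1 and Phb2 remained the first 3, Mff moved above Dnm1l and Tfam to the last place. By both lengths, Mfn2 transcripts were more abundant per length than Mfn1 in every WT library. The ranges were 10.7 to 11.9 against 3.70 to 4.11 CPM per kilobase of merged exon. With the longest transcript they were 15.1 to 16.8 against 5.53 to 6.15 CPM per kilobase.

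The promoters of the genes on which these comparisons turn are given from RefSeq (build GRCm38.p6, the 250 bases before the most upstream annotated start, 5′ to 3′ on the gene's strand, whereas gene positions above are on GRCm39). Pink1 and Mfn2 are shown because their groups did not overlap, Mfn1 as the paralog of Mfn2 whose groups did, and Opa1 and Tfam as the pair that followed each other most closely. Capitals mark matches, on either strand, to motifs of transcription factors known to act on nuclear genes for mitochondria: the palindromic NRF1 motif, CCGGAAG for GABP, AAGGTCA for the estrogen-related receptors, AAGATGGC for YY1 and CACGTG for E-box factors such as TFEB and MYC. None of these matches overlapped another. The windows are Pink1 chr4:138326297-138326546 (minus strand), Mfn2 chr4:147904910-147905159 (minus strand), Mfn1 chr3:32529232-32529481 (plus strand), Opa1 chr16:29579084-29579333 (plus strand) and Tfam chr10:71238045-71238294 (minus strand).
Pink1: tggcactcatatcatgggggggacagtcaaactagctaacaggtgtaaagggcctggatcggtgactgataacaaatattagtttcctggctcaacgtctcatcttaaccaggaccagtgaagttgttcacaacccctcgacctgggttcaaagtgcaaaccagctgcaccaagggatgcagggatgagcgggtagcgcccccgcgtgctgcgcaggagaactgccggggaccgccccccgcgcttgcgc
Mfn2: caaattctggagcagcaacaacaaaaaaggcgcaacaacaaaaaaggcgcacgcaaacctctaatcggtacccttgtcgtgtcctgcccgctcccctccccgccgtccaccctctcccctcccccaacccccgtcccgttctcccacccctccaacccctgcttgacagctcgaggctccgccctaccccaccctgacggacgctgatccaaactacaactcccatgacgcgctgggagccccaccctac
Mfn1: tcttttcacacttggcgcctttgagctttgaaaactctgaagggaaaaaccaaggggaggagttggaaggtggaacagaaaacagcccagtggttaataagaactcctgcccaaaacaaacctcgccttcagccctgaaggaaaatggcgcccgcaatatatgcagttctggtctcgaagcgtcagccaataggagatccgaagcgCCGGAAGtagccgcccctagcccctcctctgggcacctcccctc
Opa1: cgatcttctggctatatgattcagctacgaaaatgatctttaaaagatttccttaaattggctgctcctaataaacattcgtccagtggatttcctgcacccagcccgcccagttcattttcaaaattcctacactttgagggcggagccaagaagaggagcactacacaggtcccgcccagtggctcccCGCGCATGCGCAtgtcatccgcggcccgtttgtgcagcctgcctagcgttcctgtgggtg
Tfam: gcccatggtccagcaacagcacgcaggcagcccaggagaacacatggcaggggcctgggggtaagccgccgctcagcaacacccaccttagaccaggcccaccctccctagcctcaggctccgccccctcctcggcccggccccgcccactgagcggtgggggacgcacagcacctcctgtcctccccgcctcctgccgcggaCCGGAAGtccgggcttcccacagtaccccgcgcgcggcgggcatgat
Mfn1 and Tfam held 1 GABP match each, 44 and 47 bases before the start, and Opa1 held 1 NRF1 match 60 bases before it. Pink1 held no match, and Mfn2 held none at its first start or at the other 2 starts. All 9 genes had a RefSeq promoter. A GABP match was present in 4 of the 9 (Phb2, Mfn1, Fis1 and Tfam) and in 7.83% of all 27025 genes with a promoter of this length, and an NRF1 match in 1 of the 9 (Opa1) and in 1.12% of all genes. None of the 9 held the motif of the estrogen-related receptors (4.70% of all genes), of YY1 (1.83%) or the E-box (6.86%). The 4 genes with a GABP match had log2 fold changes from -0.24 (Tfam) to 0.08 (Phb2).

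The factors named by these motifs were themselves measured. Nrf1 was at 13.5 to 25.3 CPM in WT and 16.3 to 17.2 CPM in LC3b-/- (log2 fold change -0.09, adjusted p = 0.828 by edgeR), and Gabpa at 32.0 to 37.1 and 31.2 to 35.6 CPM (-0.08, edgeR adjusted p = 0.694). Both overlapped between the genotypes. Over all genes, DESeq2 called 1810 and voom 124. Of the 13 transcription regulators listed, DESeq2 called 2 (Pprc1 and Myc), voom 0 and edgeR 0. At an unadjusted p under 0.05 in edgeR, 2 were higher and 1 lower (13.5% and 10.6% of all genes tested). These 3 were named after their values had been seen. Ppargc1a, a coactivator of mitochondrial biogenesis, was at 38.0, 39.1, 49.0 and 43.7 CPM in WT and at 21.6, 29.2 and 37.6 CPM in LC3b-/- (log2 fold change -0.53 ± 0.20, SE, adjusted p = 0.172 by edgeR). Its relative Pprc1 had a log2 fold change of 0.97 ± 0.26 (edgeR adjusted p = 0.105) and Myc of 1.37 ± 0.39 (edgeR adjusted p = 0.112). The first was lower and the other 2 higher in every LC3b-/- library than in any WT library, as were 10.3% (lower) and 12.0% (higher) of all genes tested.

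Other genes of the same processes were counted in lists written from general knowledge, in which a gene may stand more than once. The background for each list is the share over all 16990 genes tested. At an unadjusted p under 0.05, 10.6% had lower and 13.5% higher values. Without overlap between the groups, 10.3% were lower and 12.0% higher, and 8291 genes had a log2 fold change below 0. No list was tested against these shares. Of 40 tested genes of mitophagy (receptors, ubiquitin enzymes, import channels and adaptors), edgeR called 0, 11 had an unadjusted p under 0.05 with lower and 2 with higher values in LC3b-/-, and the median log2 fold change was -0.19. DESeq2 called 0 of these 40 and voom 0, against 1810 and 124 over all genes. Among the receptors that bind LC3 from the outer membrane, Bnip3l was at 149, 149, 151 and 185 CPM in WT against 105, 102 and 137 CPM in LC3b-/- (-0.47 ± 0.15, SE, edgeR adjusted p = 0.137). Fundc1 was at 37.7 to 44.7 and 33.0 to 36.5 CPM (-0.30, edgeR adjusted p = 0.160), and Bnip3 at 27.7 to 43.3 and 19.4 to 28.3 CPM (-0.49, edgeR adjusted p = 0.186). Bnip3l and Fundc1 did not overlap between the groups, whereas Bnip3 did. Other such receptors on the list, named here after their values had been seen, overlapped and lay on both sides of 0. They were Bcl2l13 (0.23, edgeR adjusted p = 0.398) and Fkbp8 (-0.19, edgeR adjusted p = 0.351).

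Enzymes that act on ubiquitin at the mitochondrion lay on both sides of 0. Usp30, a deubiquitinase of the outer membrane that opposes mitophagy, was at 35.1 to 46.4 CPM in WT and 25.9 to 32.3 CPM in LC3b-/- (log2 fold change -0.44, adjusted p = 0.147 by edgeR), and Usp15, another deubiquitinase, at 26.9 to 31.0 and 34.2 to 39.9 CPM (0.32, edgeR adjusted p = 0.146). Neither pair of ranges overlapped, in opposite directions. Fbxl4, a restraint on the BNIP3 receptors, had a log2 fold change of -0.51 (edgeR adjusted p = 0.152), the autophagy adaptor Nbr1 of -0.36 (edgeR adjusted p = 0.123) and Tbc1d15, a GTPase-activating protein for Rab7, of 0.32 (edgeR adjusted p = 0.174). Parl, the protease that cleaves PINK1, was at 55.1 to 68.0 and 43.4 to 55.6 CPM (-0.31, edgeR adjusted p = 0.206), and Phb1, the partner of prohibitin 2, at 82.3 to 108 and 76.6 to 105 CPM (-0.06, edgeR adjusted p = 0.848).

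**Figure D4:**
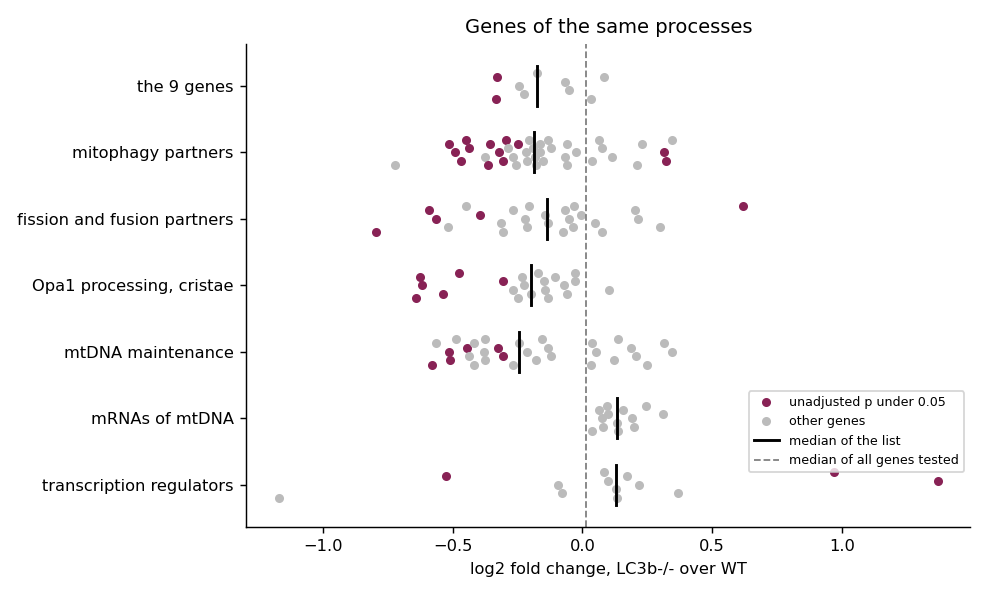
Log2 fold change of LC3b-/- over WT (horizontal axis) of each gene in the lists named at the left, with each point 1 gene, dark points those with an unadjusted p under 0.05, black bars the medians of the lists and the dashed line the median of all genes tested (0.01). The medians of the 9 genes (-0.17) and of the 4 partner lists (-0.25 to -0.14) lie to the left of 0 and that of the mRNAs of mtDNA (0.13) to the right.

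Of 26 tested partners of fission and fusion, 4 had an unadjusted p under 0.05 with lower and 1 with higher values (10.6% and 13.5% of all genes tested). None of these partners was called by edgeR, DESeq2 or voom, and the median was -0.14. The DRP1 receptors differed from each other in value, with Mief2 at 19.1 to 29.7 CPM in WT and 13.8 to 18.0 CPM in LC3b-/- (log2 fold change -0.59 ± 0.19, SE, adjusted p = 0.137 by edgeR) and Mief1 at 15.4 to 20.8 and 14.2 to 20.2 CPM (-0.01, edgeR adjusted p = 0.986). The ranges of Mief2 did not overlap. Miga1, which promotes fusion, was at 61.4 to 85.3 CPM in WT and at 26.2, 36.9 and 62.3 CPM in LC3b-/- F1, F3 and M (-0.79 ± 0.29, SE, edgeR adjusted p = 0.165), so that LC3b-/- M lay within the WT range. Trak2, an adaptor for mitochondrial transport, had a log2 fold change of -0.56 (edgeR adjusted p = 0.159), and Dnm2, a dynamin of endocytosis also studied in fission, of 0.62 (edgeR adjusted p = 0.122). Rhot1, a GTPase that links mitochondria to motors, ranged from 24.1 to 72.5 CPM within WT, and its value of -0.27 (edgeR adjusted p = 0.692) became 0.09 without WT F2.

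Of 21 genes for OPA1 processing and for cristae, 20 had values below 0 (8291 of all 16990 genes tested), and the median was -0.20. An unadjusted p under 0.05 with lower values was found for 6 of them (10.6% of all genes tested). edgeR and voom called 0 of them. DESeq2 called 2, Chchd6 and Chchd10, where it called 1810 over all genes. The proteases that cleave OPA1 overlapped between the groups, with Oma1 at 15.1 to 19.3 CPM in WT and 13.3 to 16.7 CPM in LC3b-/- (log2 fold change -0.20, adjusted p = 0.431 by edgeR) and Yme1l1 at 74.5 to 101 and 68.5 to 80.5 CPM (-0.25, edgeR adjusted p = 0.300). Immt, the core of the cristae-shaping MICOS complex, also overlapped (-0.10, edgeR adjusted p = 0.578). Among the other MICOS subunits, Chchd3, named here after its values had been seen, was at -0.03 with overlapping groups, Chchd6 at -0.62 ± 0.17 (SE, edgeR adjusted p = 0.105) and Apoo at -0.54 ± 0.15 (SE, edgeR adjusted p = 0.106). Chchd10, an intermembrane-space protein, was at 349, 341, 397 and 424 CPM in WT and at 235, 215 and 284 CPM in LC3b-/- (-0.63 ± 0.16, SE, edgeR adjusted p = 0.0967). These last 3 genes were lower in every LC3b-/- library than in any WT library.

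Of 31 genes that copy, transcribe or maintain mtDNA, 6 had an unadjusted p under 0.05 with lower and 0 with higher values (10.6% and 13.5% of all genes tested). The median was -0.25, with 0 called by edgeR, DESeq2 or voom. Tfb2m, which works with TFAM at the mitochondrial promoters, was at 15.8 to 18.4 CPM in WT and 12.5 to 15.2 CPM in LC3b-/- (log2 fold change -0.33 ± 0.13, SE, adjusted p = 0.188 by edgeR), without overlap. The mitochondrial RNA polymerase Polrmt (0.05), the helicase Twnk (-0.25) and the single-strand binding protein Ssbp1 (-0.12) overlapped between the groups (edgeR adjusted p from 0.385 to 0.842). The DNA polymerase Polg was higher in every LC3b-/- library (46.9 to 51.1 CPM) than in any WT library (41.7 to 44.1 CPM), with a log2 fold change of 0.19 (edgeR adjusted p = 0.252). Mpv17, an inner membrane protein needed for mtDNA upkeep, had a log2 fold change of -0.51 ± 0.13 (SE, edgeR adjusted p = 0.102) and the thymidine kinase Tk2 of -0.31 (edgeR adjusted p = 0.159). The mRNAs that mtDNA itself encodes went the other way in value, with all 13 above 0 (median 0.13, from 0.04 to 0.31). Of these 13 mRNAs, 0 had an unadjusted p under 0.05, and the lowest edgeR adjusted p was 0.474. LC3b-/- F1 held the highest value of the 7 libraries for each of the 13, while LC3b-/- F3 and M lay within the WT range. For mt-Nd1, LC3b-/- F1, F3 and M were at 13800, 8376 and 9376 CPM, against 7296 to 11570 CPM in WT. DESeq2 and voom called 0 of these 13.

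Summed levels of cell type markers also differed between the genotypes. The summed level of 18 RPE markers was 36360 to 55110 CPM in WT and 16440, 19820 and 33930 CPM in LC3b-/- F1, F3 and M. Of the 18, 17 were below 0, and 9 had an unadjusted p under 0.05 with lower values (10.6% of all genes tested). Rpe65, the isomerase of the visual cycle that defines the RPE, was at 2132 to 3968 CPM in WT and 878 to 2134 CPM in LC3b-/-. Its log2 fold change was -0.89, with an edgeR adjusted p of 0.203. Best1 was near 1 CPM throughout (0.861 to 1.71). In LC3b-/- F1, F3 and M, Pink1 (192.2, 209.4 and 248.0 CPM) and Mff (56.7, 58.1 and 68.9 CPM) stood in the order of these sums. Mfn2 (94.5, 87.7 and 95.5 CPM) did not, nor did the rest of the 9 genes. Within WT F1, F2, F3 and M1, the RPE marker sums were 38580, 36360, 48060 and 55110 CPM. Dnm1l (82.1, 76.6, 93.9 and 98.2 CPM) stood in the order of these WT sums. Mfn1, Mfn2, Opa1 and Tfam had F3 and M1 above F1 and F2, as the sums did, but were highest in F3. Pink1 had F3 and M1 below F1 and F2, and Phb2, Fis1 and Mff had neither split. A link between these orders was not tested.

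Markers of the ocular surface epithelium were all 12 higher in LC3b-/-, 8 of them at an unadjusted p under 0.05 (13.5% of all genes tested). Their sums were 13.8 to 3277 CPM in WT and 28080, 7175 and 3666 CPM in LC3b-/- F1, F3 and M, with Dsg3 at 0 in WT F3. LC3b-/- F1 held most of this RNA and also had the lowest RPE marker sum of the 7 libraries (16440 CPM). Without LC3b-/- F1, the log2 fold change of Pink1 was -0.25, with an unadjusted p of 0.118 in edgeR. That of Mfn2 was -0.35, with an unadjusted p of 0.0231. The number of mitophagy partners lower at an unadjusted p under 0.05 was then 1 instead of 11, and that of fission and fusion partners 0 instead of 4. In edgeR, Pink1 also had an unadjusted p above 0.05 without WT F1 (0.0916), WT F2 (0.071), WT M1 (0.0717) or LC3b-/- F3 (0.0747). Endothelial markers were all 10 above 0, at 443 to 1404 CPM in WT and 1574 to 1894 CPM in LC3b-/-. Photoreceptor markers overlapped and spanned 97.8 to 21820 CPM over the 7 libraries, all 14 with values below 0 and none of the 14 at 0 in any library. Sums of 12 macrophage and microglia markers were 596 to 783 CPM in WT and 624 to 1394 CPM in LC3b-/-, those of 8 fibroblast markers 691 to 1842 and 1325 to 2161, of 7 erythrocyte markers 182 to 542 and 216 to 662, and of 13 skeletal muscle markers 19.6 to 60.2 and 25.1 to 63.6. Sums of 8 Müller glia markers (Rlbp1 among them, which is also on the RPE list) were 12660 to 16650 and 10240 to 12530 CPM. Of these 8, 3 were above 0 and 5 below. Apoe, the most abundant of them, was at 6833 to 9753 CPM in WT and 5030 to 6959 CPM in LC3b-/-. The part of cell content in the results for the 9 genes was not tested.

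**Figure D5:**
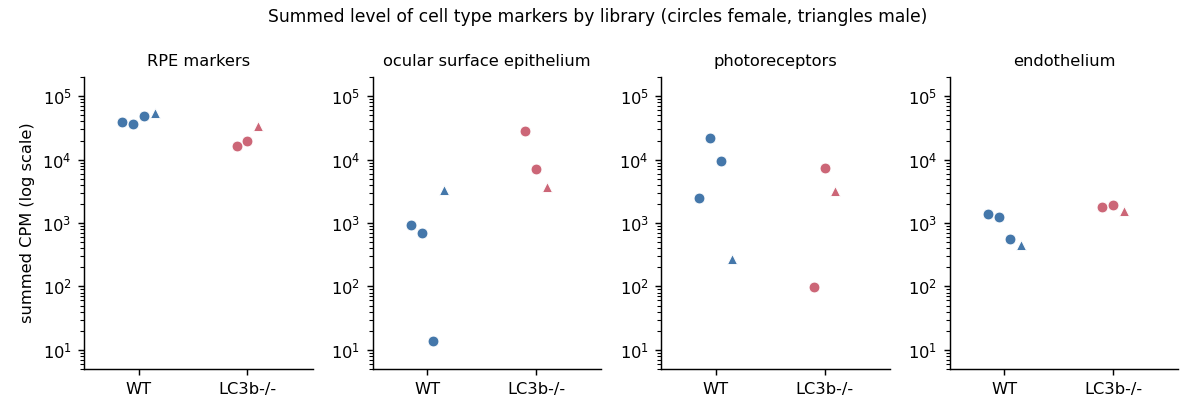
Summed CPM (vertical axes, log scale) of markers of RPE, ocular surface epithelium, photoreceptors and endothelium, with each point 1 mouse, circles for females and triangles for males. RPE markers are lower (16440 to 33930 against 36360 to 55110 CPM) and ocular surface markers higher (3666 to 28080 against 13.8 to 3277 CPM) in the 3 LC3b-/- libraries.

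Of the 9 genes, 4 share exon sequence with a protein-coding gene on the opposite strand. The libraries keep strand, but the strand setting of the counting is not given in the sources used here, so reads from these stretches could be split between the partners. Mfn2 shares 1245 bases with Fv1, which was at 1.70 to 3.52 CPM in WT and 0.765 to 1.66 CPM in LC3b-/-, also without overlap and with lower values in LC3b-/-. Pink1 shares 1514 bases with Ddost, whose log2 fold change was 0.15 (edgeR adjusted p = 0.487), Mfn1 shares 5448 bases with Gnb4 and Dnm1l shares 3594 bases with Yars2. A search of the coding sequences found no annotated gene in the count table that was nearly identical to any of the 9.

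The genes whose levels followed each of the 9 most closely over the 7 libraries were taken from 9750 protein-coding genes with a mean of at least 10 CPM. For Mfn2 these were Dele1 and Dnal4 (Pearson r of log2 CPM 0.99 for both), for Pink1 Rtl8b and Zfp367 (0.98 and 0.97), and for Tfam Uso1 and Stip1 (0.99 for both). Opa1 was followed by Sptlc1 and Pmpcb (0.99 for both), Mff by Vps4a and D5Ertd579e (0.99 for both), Dnm1l by Wwc1 and Mat2b (0.98 for both), Fis1 by Mnat1 and Bola2 (0.98 and 0.96), Phb2 by Txndc17 and G6pdx (0.98 for both) and Mfn1 by Pwp1 and Fam20b (0.97 and 0.96). With 7 points and so many candidates, values this high describe the libraries and carry no test.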

How the data were processed

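Messenger RNA was measured in 7 libraries of RPE, 4 WT and 3 LC3b-/-, grouped by the genotype label, by stranded 100-base single-read sequencing of polyadenylated RNA. Salmon counted reads against the GENCODE transcripts of GRCm39 and tximeta gave gene totals. The values the authors deposited are these estimated counts as whole numbers, with no scaling between libraries. Symbols, positions and lengths came from a later GENCODE release on the same build, which matched 51721 of 52740 identifiers. No other sample column was present, and no library was left out or pooled.

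Counts were analysed with edgeR 4.0.16 in R 4.3.3 (filterByExpr, TMM, quasi-likelihood test of LC3b-/- against WT, Benjamini-Hochberg adjustment over all 16990 genes tested). Log2 CPM used a prior count of 2. The SE of a log2 fold change is the unshrunk coefficient over the square root of F. Exact permutation tests were two-sided. Alternatives were DESeq2 1.42.0, limma 3.58.1 (voom with quality weights), other size factors and filters, sex as a covariate, females only, a replicate block and each library left out. Copies of genes were sought with BLAST+ 2.17.0 (95% identity over 100 bases), and figures were drawn with matplotlib 3.10.9 in Python 3.11.15. The code was tested on simulated data.

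The 9 genes, the lists and the tests were chosen with earlier results of these data known. Named beside them were Map1lc3b, 18 partner genes chosen by name (1 of them is not reported here), up to 3 higher and 3 lower genes of each partner list with the smallest unadjusted p under 0.05, and the 2 genes most like each of the 9. Motif windows, ratios and the regulators named were chosen later. The labels do not say that mice came from separate litters. The p-values take the mice of a group as independent, which could not be checked.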

Additional observations from a re-analysis of the deposited data

Results flagged for a closer look

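Of the 41 WT groups of 4 libraries examined for a sample far from the rest (the 9 genes, Map1lc3b, the named partners and the Mfn2 to Mfn1 ratio), 2 had one by Dixon's test at the 95% level, for which chance gives about 1 in 20. Mfn2 in WT F3 was at 125.5 CPM where the other WT libraries were at 113 to 114 CPM, and Bnip3l in WT M1 was at 185.1 CPM where the others were at 149 to 151 CPM. Without WT F3 the log2 fold change of Mfn2 was -0.31, and without WT M1 that of Bnip3l was -0.39.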

How the results depend on the processing

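None of the 9 genes was called under any of the 17 other settings run, and of 144 values of their log2 fold changes under other settings, 142 kept their direction. The exceptions were those of Mfn1, 0 by voom and -0.02 without LC3b-/- F1 (-0.02 to 0.06 over the libraries left out). Mfn2 stayed between -0.37 and -0.29 and Pink1 between -0.45 and -0.25. Of the 16 other fits behind these values, Mfn2 had an unadjusted p under 0.05 in 16 and Pink1 in 9. Of the 9 genes, 2 had an unadjusted p under 0.05, against 1 with library size alone, 1 with a replicate block and 1 to 3 with a library left out. Under 2 other scalings Pink1 and Mfn2 did not overlap between the groups, and no other gene of the 9 joined them.

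The 40 calls over all genes became 1810 by DESeq2, 124 by voom, 78 without a filter, 197 with sex as a covariate, 96 in females only, 1 with the replicate block and 11 (without LC3b-/- F3) to 485 (without LC3b-/- M) with a library left out. The numbers of partner genes lower at an unadjusted p under 0.05 went from 11 to 1 to 9 for mitophagy, from 4 to 0 to 6 for fission and fusion, from 6 to 4 to 6 for OPA1 processing and cristae, and from 6 to 1 to 6 for mtDNA with a library left out, lowest without LC3b-/- F1 for the first 2 and without LC3b-/- F3 for mtDNA. The causes were not tested.

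Directions also turned for Phb1 (-0.18 to 0.03 with a library left out), for Mief1 (0.01 by voom, 0.05 with library size alone, 0.01 with at least 10 counts in every library, -0.12 to 0.14 with a library left out), for Rhot1 (0.11 with the replicate block, -0.50 to 0.09 with a library left out) and for Polrmt (-0.02 to 0.11). WT and LC3b-/- libraries with the same replicate label (F1, F3 or male) were not treated as pairs in the main fit. Their deviations from the group means had correlations of 0.15 (F1), 0.24 (F3) and -0.17 (males). The labels do not say whether they are pairs, and these few values cannot decide it. Summing near-identical copies gave no value, since none was in the count table. At least 503 counts lay behind each value of the 9 genes, so none was near the limit of detection.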
